A study of Mus musculus with 19 samples.

Results

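The 38 genes described here encode the path from glucose uptake to lactate export, the hypoxia-inducible factors (HIFs) with the enzymes that set their stability, and a set of HIF targets. The rule names them by gene symbol from textbook knowledge of the 2 pathways and uses no measured value, though earlier results of these data were known when it was written. All 38 were found among the 53558 genes of the deposited tables, and 31 had enough reads to be tested.

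The genes were followed in bulk RNA-seq of neoplastic cells sorted from lung tumors of mice with the alleles R26 LSL-tdTomato and H11 LSL-Cas9. In these mice a lentivirus delivered to the airways carries Cre, which switches on the tdTomato reporter and Cas9 in the cells it infects, and guide RNAs that direct Cas9. All 3 groups therefore carried tdTomato and Cas9 on the same tumor-prone background, and tumors grew for 17 weeks after infection. The control virus, Lenti-sgNeo1/sgNT1/sgNeo2/Cre (sgInert), gave 7 libraries from 3 female and 4 male samples. The virus Lenti-sgCebpa/sgCebpb/sgCebpd/Cre targets 3 C/EBP transcription factors (sgCebpa/b/d) and gave 7 libraries, 4 female and 3 male. The virus labelled Lenti-sgLkb1 (sgLkb1) targets the kinase gene Lkb1 (Stk11) and gave 5 libraries, all female. Guides cut in each cell separately, so a sorted sample may hold cells in which a targeted gene still works. The age of the mice at infection was not given in the labels.

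Of the sample titles, 10 carry a number that starts with MT, 4 of the sgInert titles carry one that starts with ZR, and 5 carry none (sgCebpa/b/d replicates 5 to 7 and sgLkb1 replicates 1 and 5). Some libraries share a title number. The 7 sgInert libraries carry 6 numbers, the 4 numbered sgCebpa/b/d libraries 2 and the 3 numbered sgLkb1 libraries 2. The labels do not say what a number stands for, and the p-values treat every library as separate. The 3 male sgCebpa/b/d libraries are the same 3 that carry no number, so sex and kind of title cannot be told apart in that group.

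Glycolysis splits glucose into pyruvate, and lactate dehydrogenase turns pyruvate into lactate when the cell does not send it to the mitochondria. Many steps can be run by alternative forms of an enzyme that differ in regulation and tissue distribution. HIF1A and EPAS1 (HIF2A) are marked for VHL-dependent degradation by prolyl hydroxylases (EGLN) when oxygen is present, and when stable they switch on glycolytic genes, Vegfa and other targets. LKB1 is the upstream kinase of AMPK, a sensor of cellular energy, and C/EBP factors are known for their part in lung epithelial differentiation.

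The libraries held 2760722 to 9944131 counts, with a median of 6028918. Stk11 was at 7.53 to 12.49 CPM (counts relative to library size, scaled by the TMM method) in the 5 sgLkb1 libraries, below the 19.5 to 22.9 CPM of every sgInert library. Cebpa was at 71.9 to 125 CPM in sgCebpa/b/d against 42.7 to 68.9 CPM in sgInert. Cebpb was at 3.06 to 6.58 CPM in sgInert. In sgCebpa/b/d it was at 3.98 to 5.11 CPM in MT-numbered libraries and 15.8 to 23.6 CPM in those with no number. Cebpd was at 43.0 to 122 CPM in sgInert, and at 55.0 to 80.9 and 152 to 166 CPM in the same 2 sets. In sgLkb1, where Cebpd was not targeted, it was at 72.3 to 101 CPM in MT-numbered libraries. The unnumbered sgLkb1 replicates 1 and 5 had 195 and 183 CPM of Cebpd. Cebpb was at 5.17 to 8.65 CPM over the sgLkb1 libraries. A transcript level does not report whether Cas9 cut the gene. The alveolar type II marker Sftpc, a surfactant gene, was at 9638 CPM or more in every library, and of the 6 markers of that cell type 2 were lower in sgCebpa/b/d and 3 in sgLkb1 than in sgInert. The 6 endothelial markers summed to 9.78 to 45.5 CPM in sgInert, 47.6 to 91.1 in MT-numbered sgLkb1 libraries and 96.5 to 182 in unnumbered ones. Their sums were 16.2 to 46.9 CPM in the 4 MT-numbered sgCebpa/b/d libraries and 175 to 246 in the 3 with no number. The 9 immune markers summed to 64.8 to 78.6 CPM in the same 3 libraries and to 4.34 to 9.70 CPM in the other 4 sgCebpa/b/d libraries. Immune sums were also higher in unnumbered sgLkb1 libraries, at 31.6 to 69.8 CPM, than in MT-numbered ones, at 6.11 to 11.8 CPM. The sgInert libraries had 5.40 to 25.4 CPM. Against sgInert, 4 of 6 endothelial and 2 of 7 fibroblast markers were higher in sgCebpa/b/d, and 1 of 6 and 2 of 7 in sgLkb1. Of 10 dissociation and immediate early genes, 6 were higher in sgCebpa/b/d, and in sgLkb1 2 were higher and 2 lower. No marker of cycling cells passed the test in any comparison, none of the 6 tested of the 9 immune markers did so either, and the 4 erythroid markers were under the filter at 0 to 2.88 CPM in sum. The 5 cycling markers summed to 22.5 to 424 CPM in sgInert and 104 to 227 CPM in sgLkb1. In sgCebpa/b/d they summed to 332 to 640 CPM in the 4 MT-numbered libraries and 81.1 to 167 CPM in the 3 with no number. The part of these other cells, of cycling and of dissociation in the results below was not tested. In bulk samples, fewer cells of a type and less RNA per cell cannot be told apart.

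The genes that passed the test against sgInert lay in both directions in each targeted group. In sgCebpa/b/d, the glycolytic activator Pfkfb3, Eno1, Ldha and the angiogenic factor Vegfa were higher than in sgInert, while Hk2, Ldhb, the lactate transporter Slc16a1, the HIF subunit Epas1 and the oxygen sensor Egln1 were lower. In sgLkb1, the glycolytic enzymes Aldoa, Eno1 and Pkm were higher and Ldhb was lower. Between the targeted groups, Aldoa, Eno1, Epas1 and Ndrg1 were lower in sgCebpa/b/d. These calls are adjusted p under 0.05 in edgeR's quasi-likelihood test, adjusted over all 13986 genes tested.

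Of the 31 tested genes, 4 were higher and 5 lower in sgCebpa/b/d than in sgInert, where 4.73% of all genes were called higher and 5.36% lower. Against sgInert, sgLkb1 had 3 higher and 1 lower, beside 2.81% and 2.97% of all genes. In sgCebpa/b/d against sgLkb1 none was higher and 4 were lower, beside 2.83% and 3.12%. Without the 5 unnumbered libraries, a setting chosen after the data were seen, the 3 comparisons called 5, 2 and 2 of the 31, beside 6.26%, 3.73% and 3.23% of all genes. Without sgLkb1 replicate 3 or 5 the comparison of the targeted groups called 2 or 1, beside 4.16% and 4.44%. Of the 31 genes, 14, 11 and 11 had an unadjusted p under 0.05 in the 3 comparisons, beside 23.2%, 18.5% and 18.3% of all genes. The median log2 fold change over the 31 genes was -0.11, 0.19 and -0.28, against 0.02, -0.01 and 0.03 over all genes tested. An F test over the 3 groups called 11 of the 31, beside 13.4% of all genes. The sgInert libraries are shared by the first and second comparisons, so those are not independent of each other.

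**Figure D1:**
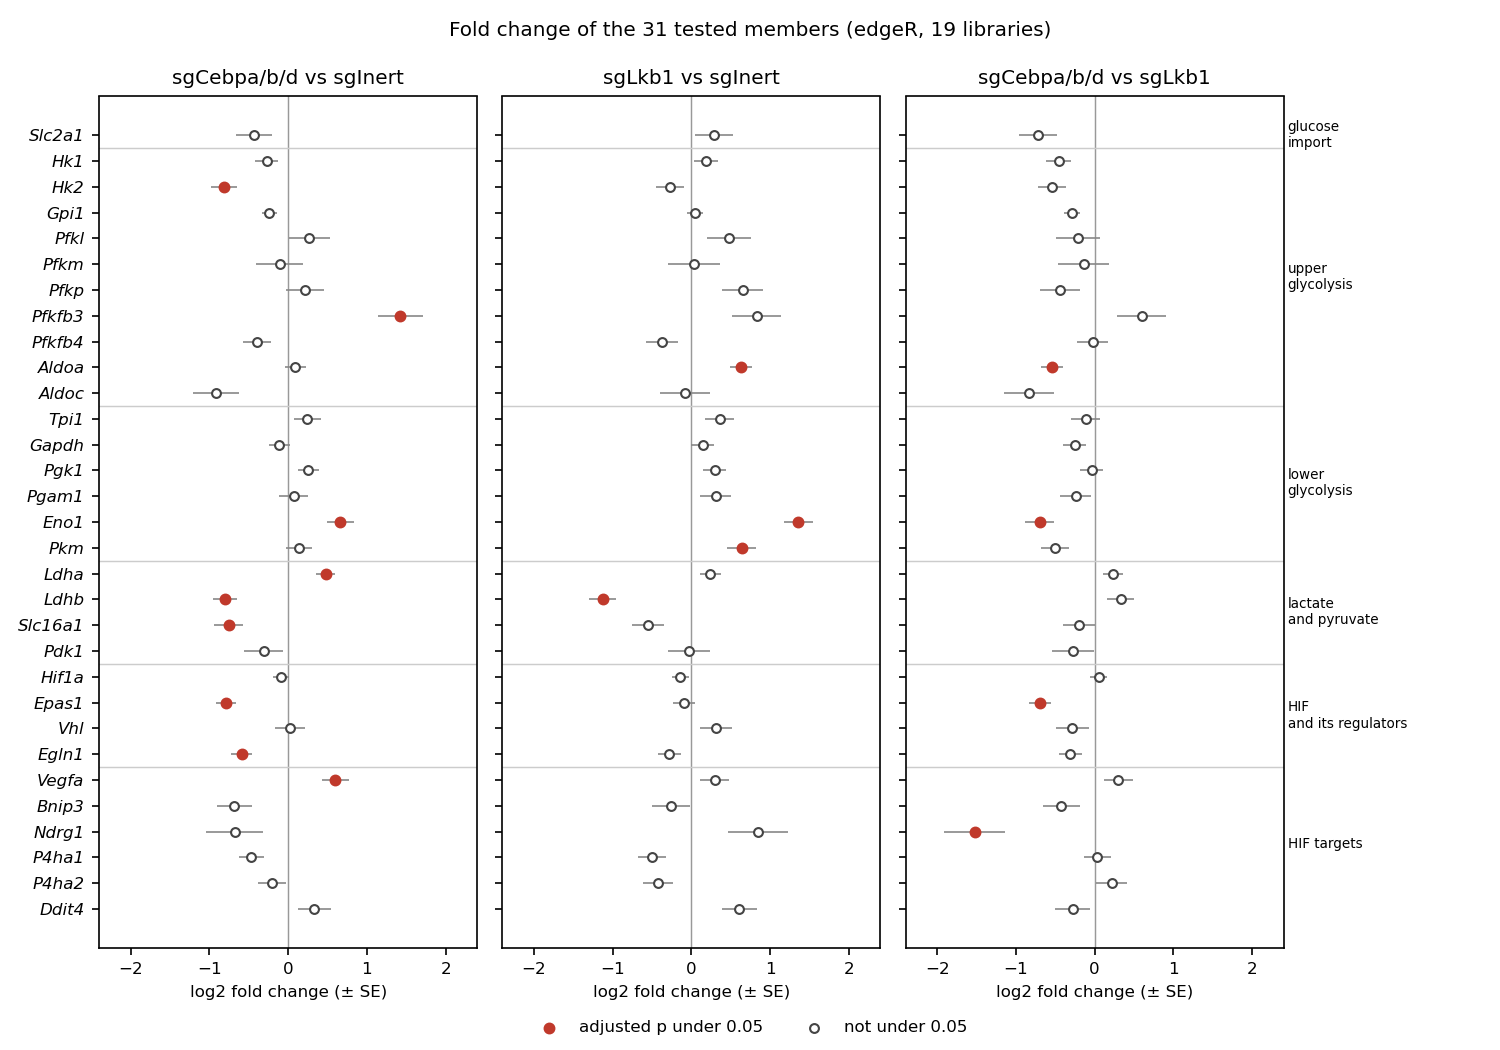
Log2 fold change with its standard error (horizontal axis) of the 31 tested genes, in order of their role, for sgCebpa/b/d against sgInert, sgLkb1 against sgInert and sgCebpa/b/d against sgLkb1. Filled points have an adjusted p under 0.05 in edgeR: 9, 4 and 4 genes, with Pfkfb3 at 1.43 and Eno1 at 1.36 the highest against sgInert and Ldhb at -1.13 the lowest.

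Ranges that do not overlap were few. Each of the 7 sgCebpa/b/d libraries lay below each of the 7 sgInert libraries for 3 of the 31 genes (Hk2, Ldhb and Epas1) and above for none, beside 2.09% and 1.28% of all genes. The 5 sgLkb1 libraries were all above the sgInert libraries for Eno1 and all below for Ldhb, 1 gene each way, beside 2.15% and 2.00%. The sgCebpa/b/d libraries were all below the sgLkb1 libraries for 5 genes (Hk1, Aldoa, Eno1, Epas1 and Ndrg1) and all above for none, beside 2.87% and 2.22%. Hk1, at 12.4 to 20.5 against 20.9 to 25.3 CPM, nevertheless had an adjusted p of 0.099 in that comparison.

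**Figure D2:**
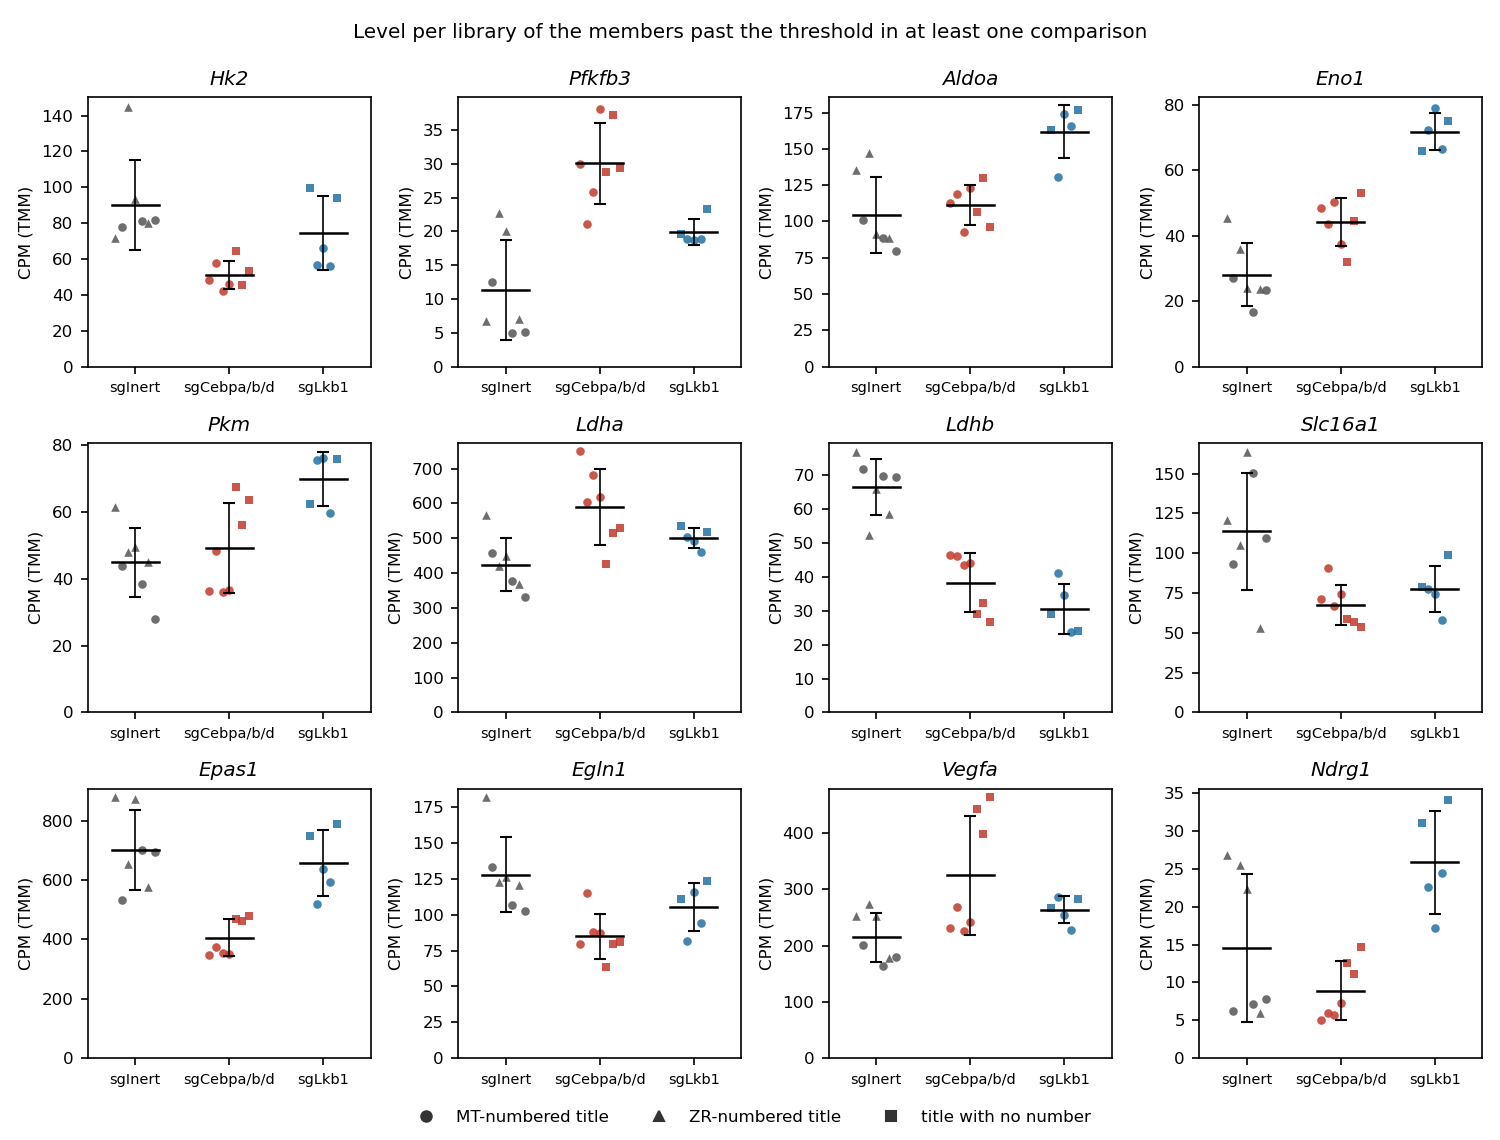
Level of each of the 12 genes called in at least 1 comparison, in CPM (vertical axis, from 0), for every library of the 3 groups. Points are libraries, shaped by kind of title, horizontal lines are means and bars are SD; the sgCebpa/b/d points for Epas1 (346 to 480.1 CPM) lie below all points of the other groups, and the squares for Vegfa in that group (398 to 463 CPM) lie above all others.

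Of glucose importers, Slc2a1 (GLUT1), the widely used glucose transporter, was at 14.2 to 44.3 CPM in sgInert (median 31.4), 13.9 to 40.4 in sgCebpa/b/d (median 21.4), and 39.2, 28.1, 35.3, 40.6 and 39.2 CPM in sgLkb1 replicates 1 to 5. It did not pass the test in any comparison; sgCebpa/b/d against sgLkb1 came nearest, with a log2 fold change of -0.72 ± 0.24 (SE; adjusted p = 0.0909). Slc2a3 (GLUT3), a high-affinity transporter, was under the filter, with 0 counts in 8 libraries and 8.75 CPM at most, in sgInert replicate 3.

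Among the hexokinases, which trap glucose in the cell, the inducible form Hk2 ran from 71.7 to 145 CPM in sgInert (median 81.4) and from 42.4 to 64.6 CPM in sgCebpa/b/d (median 48.2). In sgLkb1 it was at 99.3, 56.8, 66.0, 56.0 and 94.2 CPM, so the MT-numbered libraries lay among or just above the sgCebpa/b/d values and the 2 without a number among the sgInert values. Hk2 fell by 0.81 ± 0.16 on the log2 scale in sgCebpa/b/d (adjusted p = 0.00213) and differed by -0.27 ± 0.18 in sgLkb1 (adjusted p = 0.458). The housekeeping form Hk1 had log2 fold changes of -0.27 and 0.19 against sgInert, neither past the threshold.

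Against sgInert, the largest fold change among the 31 genes was that of Pfkfb3, a bifunctional enzyme that makes fructose 2,6-bisphosphate, the activator of phosphofructokinase. It was at 5.03 to 22.8 CPM in sgInert (median 7.02), where replicates 3 and 4, both ZR-numbered, stood well above the other 5. In sgCebpa/b/d it was at 21.1 to 38.1 CPM (median 29.4), and in sgLkb1 at 19.6, 18.8, 18.8, 18.9 and 23.3 CPM. Pfkfb3 rose by 1.43 ± 0.29 on the log2 scale in sgCebpa/b/d (adjusted p = 0.00207) and had 0.83 ± 0.31 in sgLkb1 (adjusted p = 0.127), and the targeted groups differed by 0.60 ± 0.31 (adjusted p = 0.313). Its sister Pfkfb4 had a lower median in both targeted groups (19.4 and 17.99 against 24.5 CPM) and a higher one per length (25.8 and 24.4 against 21.6 TPM), and passed no test.

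The phosphofructokinases Pfkl, Pfkm and Pfkp, which commit sugar to glycolysis, were all low, at 1.67 to 22.7 CPM over the 19 libraries, and none passed a test. Phosphoglucose isomerase, Gpi1, varied little, from 47.2 to 78.9 CPM. Aldoa, the main aldolase, was at 79.7 to 147 CPM in sgInert (median 91.1), 92.8 to 129.8 in sgCebpa/b/d (median 113), and 163, 131, 174, 166 and 177 CPM in sgLkb1. Of the 5 sgLkb1 libraries, 4 were above every library of the other groups. Aldoa rose by 0.63 ± 0.14 (log2) in sgLkb1 against sgInert (adjusted p = 0.00828) and differed by 0.09 ± 0.13 in sgCebpa/b/d (adjusted p = 0.733), and the targeted groups differed by -0.54 ± 0.14 (adjusted p = 0.0231). The third of these calls was lost without sgLkb1 replicate 3, 4 or 5 (adjusted p of 0.0653, 0.0548 and 0.0637). The minor aldolase Aldoc was at 2.04 to 10.3 CPM and had its lowest fold change, -0.92 ± 0.29, in sgCebpa/b/d (adjusted p = 0.0512).

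Lower glycolysis turns triose phosphates into pyruvate. Eno1 (enolase 1) was at 16.6 to 45.5 CPM in sgInert (median 24.0), 32.1 to 53.2 in sgCebpa/b/d (median 44.5), and 66.0, 72.3, 79.2, 66.6 and 75.0 CPM in sgLkb1. The sgLkb1 libraries did not overlap with the others, while 4 of 7 sgCebpa/b/d libraries fell within the sgInert range. Its log2 fold change was 1.36 ± 0.18 in sgLkb1 (adjusted p = 8.41e-05) and 0.66 ± 0.17 in sgCebpa/b/d (adjusted p = 0.0137), with -0.70 ± 0.18 between the targeted groups (adjusted p = 0.0219). Between the targeted groups the call was lost without sgLkb1 replicate 3 or 5 (adjusted p of 0.0646 and 0.0517).

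Reads of Eno1 can be shared with its retrogene copy Eno1b, a near-identical copy elsewhere in the genome, which held 1202 counts in all beside 5604 for Eno1. Eno1b took 14.3% to 44.4% of their joint counts in sgInert, 0% to 28.2% among sgCebpa/b/d libraries and 2.06% to 27.9% in sgLkb1. With both summed, a setting chosen after the data were seen, levels were 27.3 to 61.0 CPM in sgInert, 32.1 to 60.1 among sgCebpa/b/d libraries and 68.3 to 92.3 in sgLkb1. The rise in sgLkb1 then stood at 0.87 ± 0.19 (adjusted p = 0.00687), and the sgCebpa/b/d value at 0.27 ± 0.18 no longer passed (adjusted p = 0.384). The targeted groups then differed by -0.60 ± 0.19 (adjusted p = 0.0664).

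Pkm (pyruvate kinase), which makes pyruvate, was at 28.0 to 61.3 CPM in sgInert (median 45.0), 35.9 to 67.4 in sgCebpa/b/d (median 48.3), and 62.3, 75.4, 76.1, 59.6 and 75.7 CPM in sgLkb1. Only sgLkb1 replicate 4 fell within the sgInert range. Pkm rose by 0.64 ± 0.18 in sgLkb1 (adjusted p = 0.0364), a call that was lost in 6 of the 19 fits that left out 1 library, namely sgInert replicate 2, 5 or 7 or sgLkb1 replicate 2, 3 or 5, with an adjusted p of up to 0.0904. Within sgCebpa/b/d the 3 libraries with no title number (56.0 to 67.4 CPM) lay above the 4 MT-numbered ones (35.9 to 48.3). Tpi1, Gapdh, Pgk1 and Pgam1, the other enzymes of this stretch, passed no test. Their log2 fold changes were -0.11 to 0.26 with sgCebpa/b/d and 0.15 to 0.36 in sgLkb1. Eno2, the neuronal enolase, was under the filter at 15 counts or fewer per library.

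At the branch to lactate, the 2 lactate dehydrogenase genes moved in opposite directions in sgCebpa/b/d. Ldha, whose product favors pyruvate to lactate, was at 330.3 to 566 CPM in sgInert (median 421), 427 to 752 in sgCebpa/b/d (median 604), and 536, 504, 493, 459.5 and 517 CPM in sgLkb1. Ldha was 0.47 ± 0.12 higher on the log2 scale in sgCebpa/b/d (adjusted p = 0.0114), and differed by 0.24 ± 0.13 in sgLkb1 (adjusted p = 0.335). The 4 MT-numbered sgCebpa/b/d libraries, at 604 to 752 CPM, lay above all sgInert libraries, and the 3 with no number did not.

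Ldhb, whose product is the form typical of oxidative tissues, was at 52.5 to 76.8 CPM in sgInert (median 69.4), 26.6 to 46.3 in sgCebpa/b/d (median 43.5), and 29.2, 41.1, 34.7, 23.6 and 23.9 CPM in sgLkb1. Both targeted groups lay wholly below sgInert and overlapped with each other. Ldhb fell by 0.80 ± 0.15 on the log2 scale in sgCebpa/b/d (adjusted p = 0.00127) and by 1.13 ± 0.17 in sgLkb1 (adjusted p = 0.000299), and the targeted groups differed by 0.33 ± 0.17 (adjusted p = 0.307). Per length, as TPM (transcript share after correction for length), Ldhb took 19.5% to 31.4% of the summed Ldha and Ldhb level in sgInert (24.9% ± 4.15, SD, n = 7), 10.2% to 14.6% among sgCebpa/b/d libraries (12.9% ± 1.75, n = 7) and 9.33% to 16.6% in sgLkb1 (11.7% ± 3.02, n = 5).

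Slc16a1 (MCT1), which moves lactate and pyruvate across the membrane, was at 52.9 to 164 CPM in sgInert (median 109), 53.7 to 90.6 in sgCebpa/b/d (median 66.6), and 78.9, 77.4, 74.6, 58.3 and 98.9 CPM in sgLkb1. Every sgInert library but replicate 6 was above every sgCebpa/b/d library. Slc16a1 fell by 0.75 ± 0.19 on the log2 scale in sgCebpa/b/d (adjusted p = 0.00992), with -0.55 ± 0.20 in sgLkb1 (adjusted p = 0.125). The lactate exporter Slc16a3 (MCT4) was under the filter at 16 counts or fewer per library. Pdk1, a pyruvate dehydrogenase kinase, ran from 11.04 to 45.3 CPM and passed no test.

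Promoter windows are shown for 5 enzymes whose levels changed, because HIFs bind a short core, ACGTG or GCGTG, and these genes sit on both sides of the fold change. The sequences are from RefSeq on GRCm38.p6, run from 250 bases before to 30 bases after a transcription start, and read 5′ to 3′ along the gene. Capitals mark the core letters ACGTG and GCGTG and, for the other strand, CACGT and CACGC. The windows were chosen after the levels had been seen, and for Eno1, Ldha and Pfkfb3 1 of several starts is given. For Ldha and Pfkfb3 this is the start with the most core matches, and the window of the other start held 1 match in each gene. Each Eno1 window held 2.
Eno1, chr4:150236947-150237226, plus strand: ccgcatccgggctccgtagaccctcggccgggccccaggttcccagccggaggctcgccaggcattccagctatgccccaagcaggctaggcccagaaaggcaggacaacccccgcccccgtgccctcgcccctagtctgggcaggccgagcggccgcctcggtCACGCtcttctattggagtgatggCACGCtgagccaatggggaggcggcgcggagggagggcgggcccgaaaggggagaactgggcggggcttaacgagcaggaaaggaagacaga
Ldha, chr7:46845554-46845833, plus strand: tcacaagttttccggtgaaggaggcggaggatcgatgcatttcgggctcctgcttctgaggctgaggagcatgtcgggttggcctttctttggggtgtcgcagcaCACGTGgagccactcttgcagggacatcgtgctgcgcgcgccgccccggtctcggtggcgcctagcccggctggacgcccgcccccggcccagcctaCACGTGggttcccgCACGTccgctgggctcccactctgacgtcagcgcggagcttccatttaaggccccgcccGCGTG
Pfkfb3, chr2:11502061-11502340, minus strand: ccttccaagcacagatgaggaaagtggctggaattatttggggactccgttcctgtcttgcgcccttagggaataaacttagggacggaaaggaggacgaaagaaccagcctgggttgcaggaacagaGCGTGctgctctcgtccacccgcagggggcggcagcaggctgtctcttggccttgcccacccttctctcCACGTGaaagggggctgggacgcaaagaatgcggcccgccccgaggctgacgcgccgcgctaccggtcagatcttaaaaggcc
Ldhb, chr6:142507928-142508207, minus strand: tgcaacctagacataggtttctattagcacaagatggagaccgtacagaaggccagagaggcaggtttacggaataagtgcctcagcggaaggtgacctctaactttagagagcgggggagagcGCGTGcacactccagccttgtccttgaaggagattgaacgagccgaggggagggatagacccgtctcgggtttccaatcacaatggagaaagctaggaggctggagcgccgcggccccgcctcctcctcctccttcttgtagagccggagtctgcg
Hk2, chr6:82774425-82774704, minus strand: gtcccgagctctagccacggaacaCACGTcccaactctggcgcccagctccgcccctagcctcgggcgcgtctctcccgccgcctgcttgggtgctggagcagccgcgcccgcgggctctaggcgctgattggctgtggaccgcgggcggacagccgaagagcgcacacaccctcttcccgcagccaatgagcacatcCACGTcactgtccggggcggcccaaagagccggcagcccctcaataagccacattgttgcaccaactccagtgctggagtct
Counting from -1 just before the start, the Eno1 window holds CACGC at -86 and at -62. The Ldha window holds 6 matches, of which those at -145 and -144, and those at -48 and -47, are the same CACGTG read on both strands. The Pfkfb3 window has 3 matches and the Hk2 window 2, with Pfkfb3 -53 and -52 again 1 CACGTG, while the Ldhb window has a single GCGTG at -126. In these 5 windows, genes that rose and genes that fell both hold the letters. Over all 38 genes, 35 matched a RefSeq window and 30 of these (85.7%) held at least 1 core in a window, and 24 (68.6%) at least 2. Of the 9708 tested genes with a window, 65.3% held at least 1 and 36.0% at least 2. For a gene with several windows, the window with the most cores was counted. Counted per window instead, 41.8% of all 32851 windows, genes without a test included, held at least 1. This stands beside 77.6% of the 49 windows of the genes described here. These are counts of letters in a window and do not show binding.

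Of the 2 HIF alpha subunits, Hif1a passed no test, at 209.7 to 360.4 CPM in sgInert (median 283), 230.5 to 285 among sgCebpa/b/d libraries and 231 to 263 in sgLkb1, with log2 fold changes of -0.09 ± 0.10 and -0.14 ± 0.11 against sgInert. Epas1, encoding HIF2A, was at 532 to 879.7 CPM in sgInert (median 695), 346 to 480.1 in sgCebpa/b/d (median 376), and 749 or 787 CPM in the unnumbered and 519, 637 and 594 CPM in the MT-numbered sgLkb1 libraries. No sgCebpa/b/d library reached the lowest library of either other group. Epas1 fell by 0.79 ± 0.13 on the log2 scale against sgInert (adjusted p = 0.000235) and by 0.70 ± 0.14 against sgLkb1 (adjusted p = 0.00275), with -0.09 ± 0.14 in sgLkb1 against sgInert (adjusted p = 0.794). Within that group it was higher in the 3 unnumbered libraries (463 to 480.1 CPM) than in the 4 MT-numbered ones (346 to 376), and the endothelial markers summed to 175 to 246 and 16.2 to 46.9 CPM in these. In TPM, Epas1 took 66.3% ± 2.502 (SD) of the joint Hif1a and Epas1 level in sgInert, 54.3% ± 4.58 among sgCebpa/b/d libraries and 66.4% ± 3.44 in sgLkb1.

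Egln1 (PHD2), the main oxygen-sensing hydroxylase acting on HIF, was at 103 to 182 CPM in sgInert (median 123), 63.8 to 115 in sgCebpa/b/d (median 80.8), and 111, 82.0, 116, 94.2 and 123 CPM in sgLkb1. It fell by 0.59 ± 0.13 on the log2 scale in sgCebpa/b/d (adjusted p = 0.00564). Among MT-numbered libraries alone the value was -0.31 and did not pass (adjusted p = 0.284). Vhl, the ubiquitin ligase subunit that removes HIF, was at 8.82 to 21.2 CPM and passed no test. Egln3 (PHD3), a hydroxylase that HIF itself induces, was under the filter at 10 counts or fewer.

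Of the 6 tested genes listed here as HIF targets, 1 passed in sgCebpa/b/d against sgInert and none in sgLkb1 against sgInert. Glycolytic genes, which HIFs also switch on, are given above and are not among the 6. Vegfa, which drives vessel growth, was at 164 to 274 CPM in sgInert (median 201), 226 to 463 in sgCebpa/b/d (median 268), and 266, 287, 255, 227 and 282 CPM in sgLkb1. It rose by 0.60 ± 0.17 on the log2 scale in sgCebpa/b/d (adjusted p = 0.0245). The 3 unnumbered sgCebpa/b/d libraries, at 398 to 463 CPM, stood above all other libraries. The dissociation and immediate early genes summed to 11527 to 12102 CPM in those 3 and to 5084 to 7820 in the MT-numbered sgCebpa/b/d libraries, and the 6 alveolar type II markers to 25035 to 32950 and 42086 to 47365 CPM. Their part in the Vegfa level was not tested. Without the 5 unnumbered libraries the value was 0.18 (adjusted p = 0.56), and among MT-numbered libraries alone, 226 to 268 against 164 to 201 CPM, it was 0.41 (adjusted p = 0.0334). The call was also lost without sgInert replicate 5 or 7 or sgCebpa/b/d replicate 5, 6 or 7, with an adjusted p of up to 0.0639.

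Ndrg1, a stress-induced gene, was at 5.94 to 26.8 CPM in sgInert (median 7.80), 5.07 to 14.7 in sgCebpa/b/d (median 7.29), and 31.04, 22.6, 17.1, 24.5 and 34.1 CPM in sgLkb1. In sgInert the values fell apart, with replicates 1, 3 and 4, all ZR-numbered, at 22.4 to 26.8 CPM and the other 4 at 5.94 to 7.80. Set against sgLkb1, Ndrg1 fell by 1.52 ± 0.39 on the log2 scale in sgCebpa/b/d (adjusted p = 0.0194). Leaving out sgLkb1 replicate 5 ended this call (adjusted p = 0.0569). Against sgInert neither targeted group passed, with -0.68 ± 0.36 (adjusted p = 0.276) and 0.84 ± 0.38 (adjusted p = 0.236).

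Bnip3, a mitophagy receptor, had log2 fold changes of -0.68 ± 0.22 (adjusted p = 0.0549) in sgCebpa/b/d and -0.26 ± 0.24 in sgLkb1. The collagen prolyl hydroxylase subunits P4ha1 and P4ha2 had values of -0.47 and -0.21 in sgCebpa/b/d and -0.50 and -0.42 in sgLkb1, none past the threshold. Ddit4 (REDD1), an inhibitor of mTORC1, had 0.33 and 0.61, also not past it. Car9 and Car12, carbonic anhydrases that export acid, and the vasodilator peptide gene Adm were under the filter. Car9 had 9 counts or fewer in each library, Car12 had 0 in 18 of the 19, and Adm had 37 counts in its highest library, sgCebpa/b/d replicate 5.

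Between genes, levels can be set side by side only per length. In sgInert the highest mean TPM was that of Ldha (411 ± 82.7, SD, n = 7), followed by Gapdh (297 ± 67.9), Epas1 (175 ± 39.8), Ldhb (135 ± 24.8) and Vegfa (134 ± 28.2). Ldhb and Vegfa differed by less than their spread, and Ldha and Gapdh overlapped in range (310.1 to 566 and 197 to 382 TPM). Summed over all 38 genes, the libraries held 1611 to 2587 TPM in sgInert (2002 ± 351), 1706 to 2287 among sgCebpa/b/d libraries (2008 ± 216) and 2280 to 2637 in sgLkb1 (2467 ± 144, n = 5), so that sgInert overlapped with both. On log2(TPM + 1), the median fold change of all genes tested was 0.18 in sgLkb1 and 0.03 in sgCebpa/b/d against sgInert. The part of this shift in the sums was not tested.

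**Figure D3:**
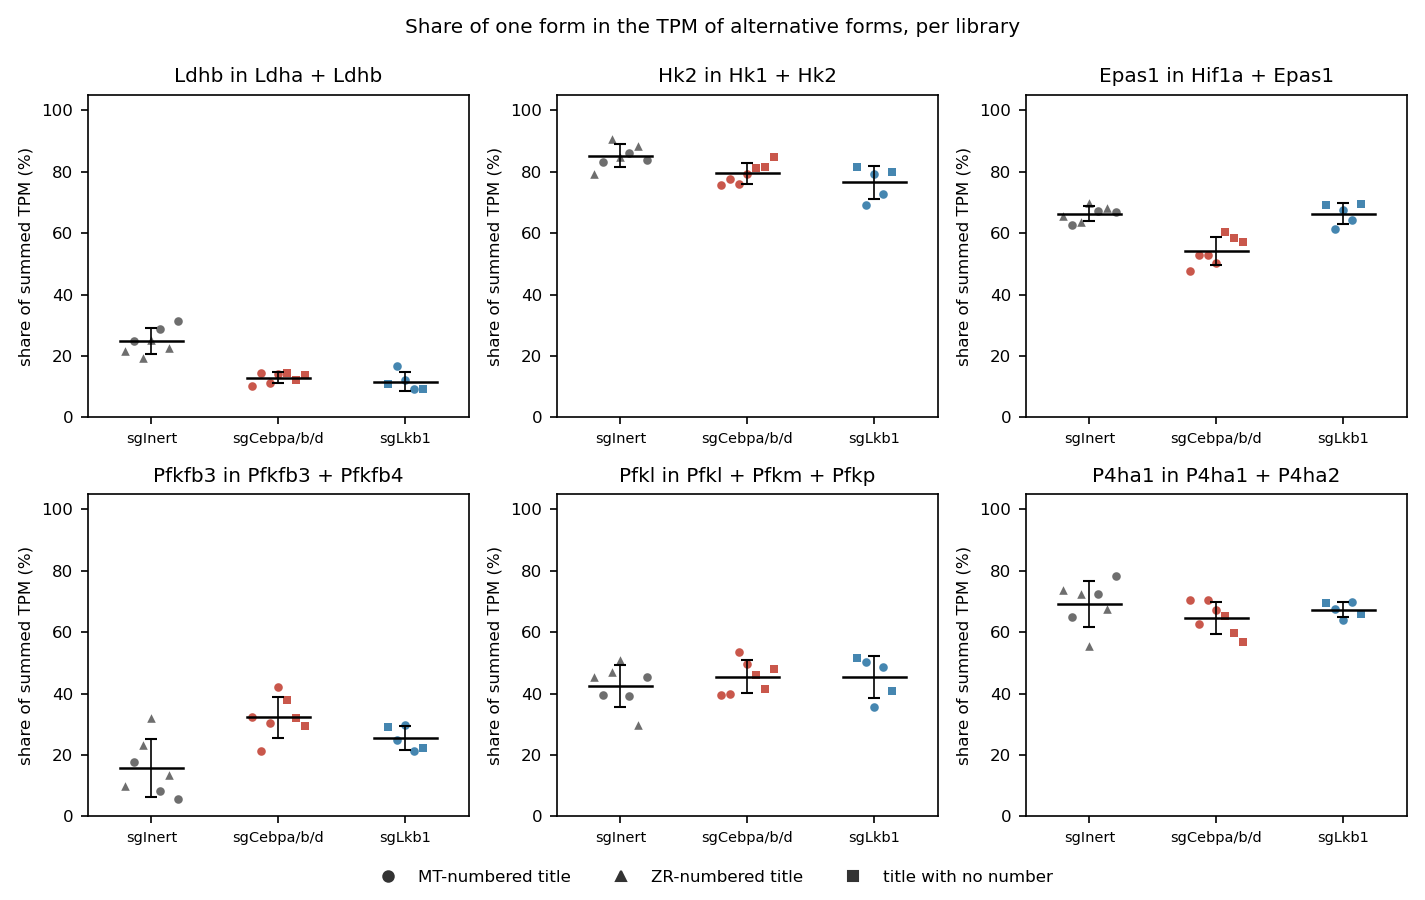
Share of 1 form in the summed TPM of alternative forms (vertical axis, percent), for every library of the 3 groups; points are libraries shaped by kind of title, lines are means and bars SD. The Ldhb share is lower in both targeted groups (means 12.9% and 11.7%) than in sgInert (24.9%), and the Epas1 share is lower in sgCebpa/b/d alone (54.3%), while the Pfkl share overlaps among all groups.

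For the other alternative forms, the ranges of the 3 groups overlapped. Hk2 was the main hexokinase in every library, at 79.2% to 90.7% of Hk1 plus Hk2 in sgInert, 75.8% to 84.8% among sgCebpa/b/d libraries and 69.1% to 81.6% in sgLkb1. Pfkfb3 made up 5.77% to 32.0% of Pfkfb3 plus Pfkfb4 in sgInert, 21.3% to 42.2% among sgCebpa/b/d libraries and 21.2% to 29.6% in sgLkb1, with means of 15.7%, 32.3% and 25.5%. Aldoa held 94.0% or more of the aldolase pair in each library, Eno1 96.8% or more against Eno2, and Egln1 98.4% or more against Egln3.

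Across libraries, the mean z-score of the 31 genes differed, though single genes could go the other way. How many of all genes were highest or lowest in each library was not counted. The library with the highest mean z-score of log2 CPM was sgInert replicate 1 (0.89), in which 9 of the 31 genes had their highest level, and sgInert replicate 3 was next (0.71). The lowest was also an sgInert library, replicate 6 (-0.68), which held the lowest level of 7 genes. All 3 carry a ZR number. The 5 sgLkb1 libraries had mean z-scores of 0.12 to 0.62 and the 7 sgCebpa/b/d libraries of -0.54 to 0.06, so these 2 groups did not overlap. Within sgInert, the 4 ZR-numbered libraries were all above the 3 MT-numbered ones for 5 of the 31 genes (Pfkl, Pkm, Pdk1, Bnip3 and P4ha2) and all below for none, beside 5.45% and 5.86% of all genes.

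**Figure D4:**
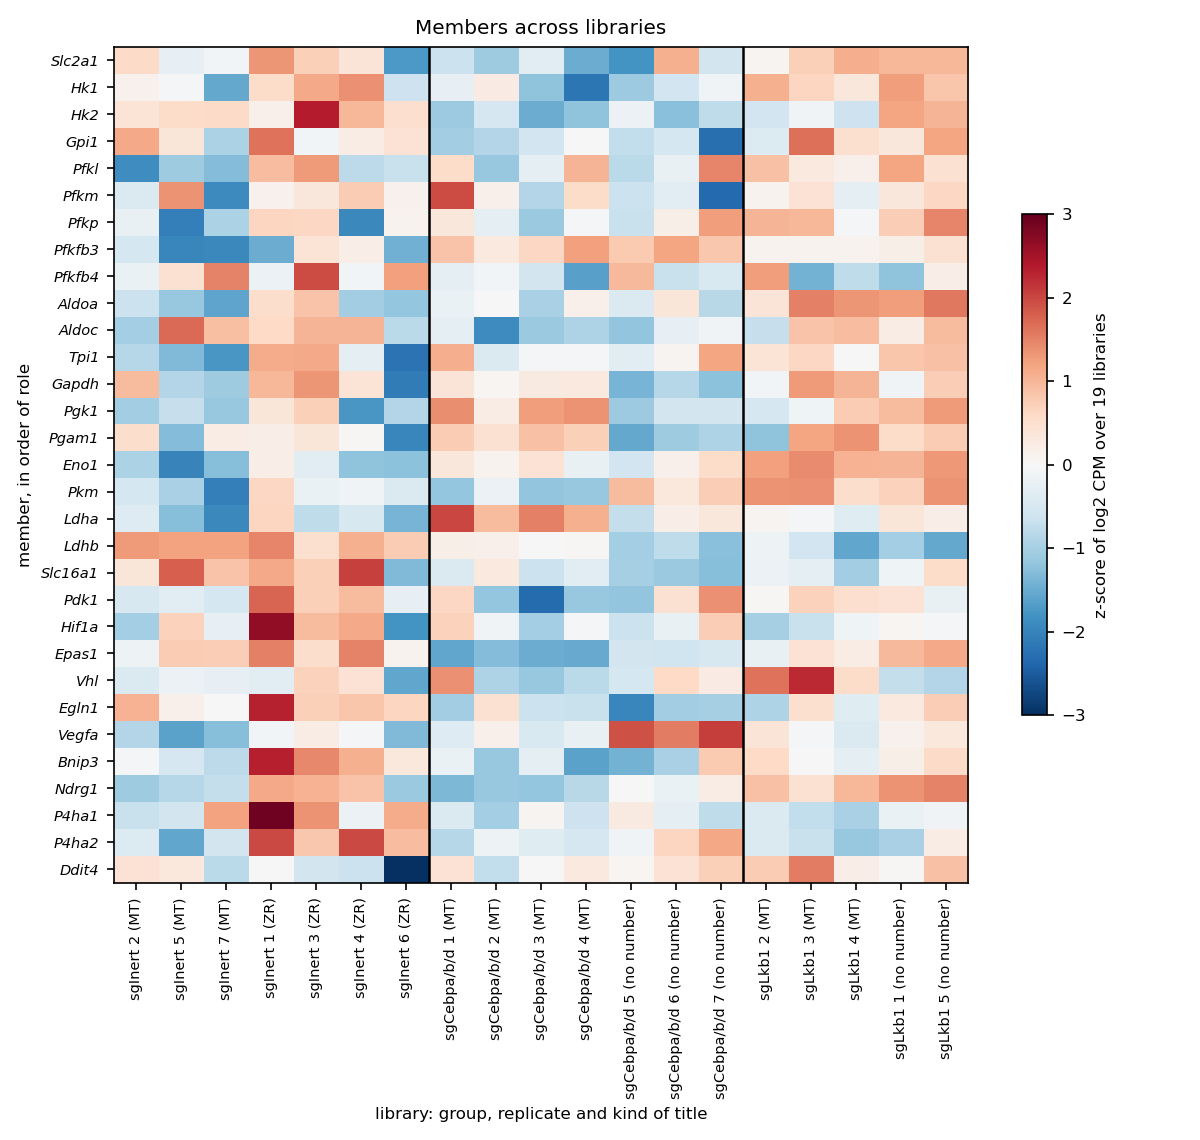
Z-score of log2 CPM over the 19 libraries (color, from -3 to 3) for the 31 tested genes in rows, by role, and libraries in columns, by group and kind of title. Within sgInert, replicates 1 and 3 are mostly red and replicate 6 mostly blue (mean z-scores 0.89, 0.71 and -0.68), and the Vegfa row is reddest in the 3 unnumbered sgCebpa/b/d libraries.

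Since kinds of title were spread unevenly over the groups, the comparisons were also made within the 10 MT-numbered libraries (3 sgInert, 4 sgCebpa/b/d and 3 sgLkb1). This set was still uneven in fibroblast markers. The 7 markers summed to 16.4 to 28.5 CPM for its sgInert libraries. The sums were 85.3 to 308 CPM for its sgCebpa/b/d libraries, and 151 to 290 CPM for those of sgLkb1. The ZR-numbered sgInert libraries, outside the set, had 92.2 to 306 CPM. The part of fibroblast RNA in the calls below was not tested. Among the MT-numbered libraries, 5 of the 31 genes were higher and 4 lower in sgCebpa/b/d than in sgInert, beside 4.30% and 4.25% of all genes. These were the genes of the full comparison without Egln1 and with Pgk1 (0.54 ± 0.13, adjusted p = 0.0231), the phosphoglycerate kinase. In sgLkb1, 7 were higher and 2 lower than in sgInert, beside 3.61% and 3.36%. The 4 genes of the full comparison were joined by Ndrg1 (1.60 ± 0.26, adjusted p = 0.00158), Pfkfb3 (1.31 ± 0.33, adjusted p = 0.0258), Vegfa (0.49 ± 0.12, adjusted p = 0.0198), Tpi1 (0.59 ± 0.17, adjusted p = 0.0497) and, lower, Slc16a1 (-0.76 ± 0.18, adjusted p = 0.0198). In sgCebpa/b/d against sgLkb1, 1 was higher (Ldha) and 6 lower, beside 3.68% and 3.30%, with Pkm (-0.83 ± 0.17, adjusted p = 0.00892) and Slc2a1 (-0.82 ± 0.20, adjusted p = 0.0218) added to the 4 lower genes of the full comparison. In a setting chosen after the data were seen, libraries of the same MT number were summed, so that each number counted once. This left only 2 numbers in each group. There 4 genes passed in sgCebpa/b/d against sgInert (Epas1, Pfkfb3, Eno1 and Ldha) and 5 in sgLkb1 against sgInert (Eno1, Aldoa, Ldhb, Ndrg1 and Pfkfb3), beside 2.78% and 2.69% of all genes.

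**Figure D5:**
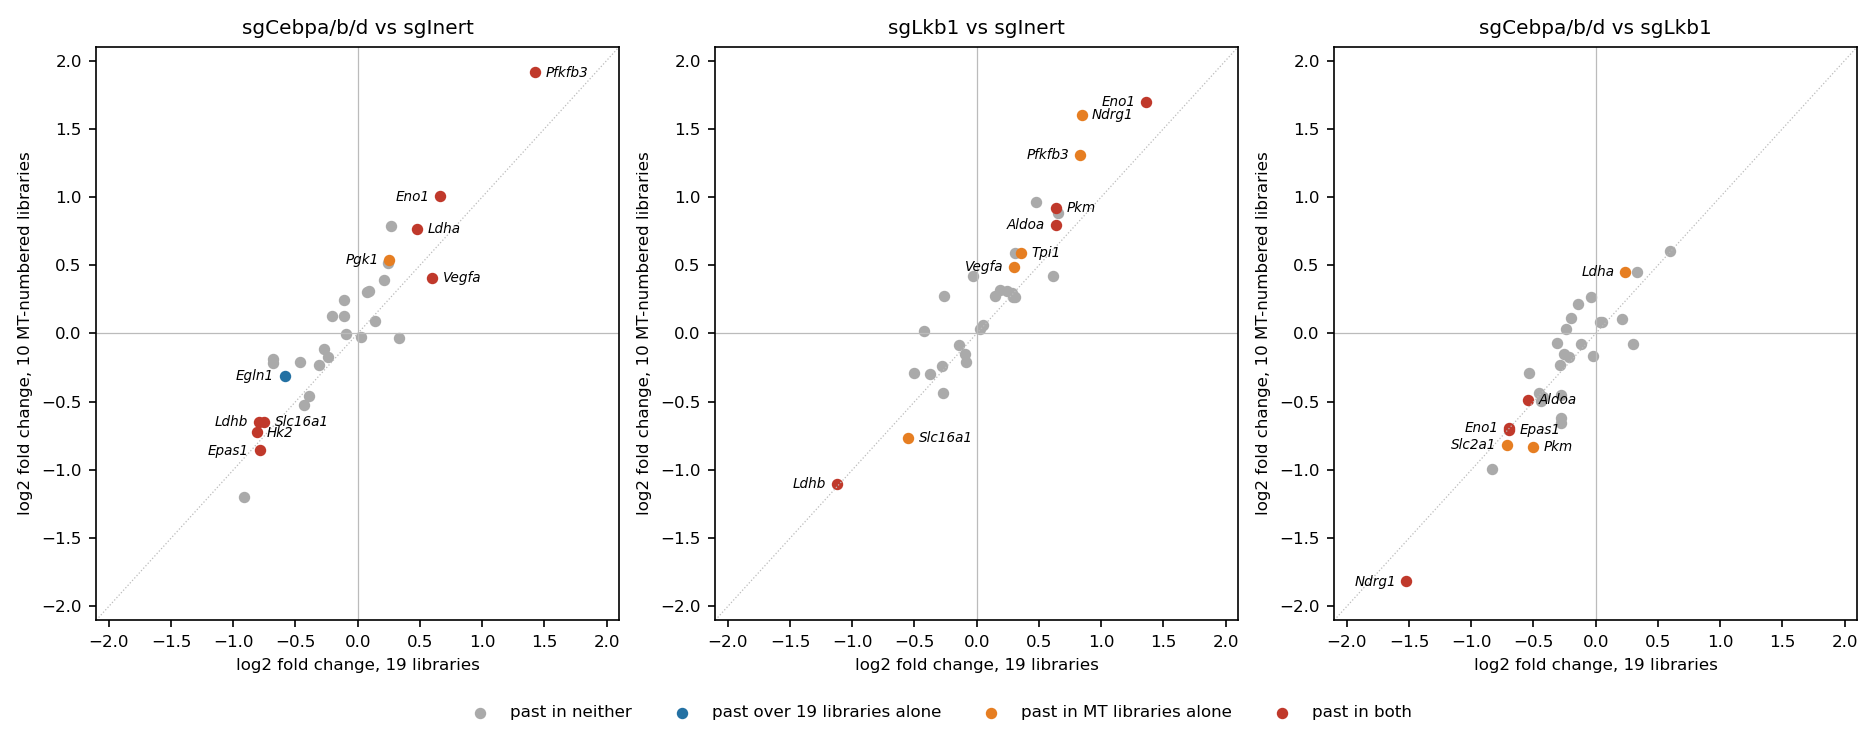
Log2 fold change of the 31 genes over all 19 libraries (horizontal axis) against that in the 10 MT-numbered libraries alone (vertical axis), for the 3 comparisons, with a dotted line of equal values. Named points passed in either or both; Pfkfb3 (1.43 and 1.91) and Eno1 (1.36 and 1.70) lie highest, and Ndrg1 in sgLkb1 against sgInert (0.84 and 1.60) is farther from the line than any other named point.

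Both sexes were present in sgInert and sgCebpa/b/d. The male sgCebpa/b/d libraries are those with no title number, so an interaction of sex with virus cannot be told apart from kind of title. In a test of the interaction of sex and virus over 12500 genes, 21 genes were called by edgeR. None of the 31 members was, with a lowest adjusted p of 0.198.

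Genes of the same pathways outside the 38 were examined as well, and their counts stand beside the shares of all genes given above, which are 4.73% higher and 5.36% lower in sgCebpa/b/d, 2.81% and 2.97% in sgLkb1, and 3.12% lower between the targeted groups. Of 53 other genes of glucose and pyruvate metabolism, 38 were tested. Of these, 2 were higher and 5 lower in sgCebpa/b/d than in sgInert, in sgLkb1 1 was higher and 2 lower, and between the targeted groups 2 were lower in sgCebpa/b/d. Slc16a7 (MCT2), another lactate and pyruvate carrier, was at 99.8 to 243 CPM in sgInert, 21.4 to 72.0 among sgCebpa/b/d libraries and 38.4 to 62.6 in sgLkb1, with log2 fold changes of -1.71 ± 0.24 (adjusted p = 6.44e-05) and -1.68 ± 0.27 (adjusted p = 0.000604). The carrier chaperone Emb also fell in both groups, by 1.06 and 0.59, while Bsg, the chaperone partner of MCT1 and MCT4, was 0.63 ± 0.12 higher in sgCebpa/b/d (adjusted p = 0.00117). Txnip, an inhibitor of glucose uptake, was 0.57 ± 0.16 higher there (adjusted p = 0.029).

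Fbp1, which runs the phosphofructokinase step backwards, was at 24.9 to 44.6 CPM in sgLkb1 and at 4.32 to 13.9 CPM in the 14 other libraries. Its log2 fold change was 2.03 ± 0.25 against sgInert (adjusted p = 2.5e-05) and the sgCebpa/b/d libraries lay below sgLkb1, at -1.84 ± 0.24 (adjusted p = 4.88e-05). Fbp2, the second fructose bisphosphatase gene, fell by 0.74 in sgCebpa/b/d against sgInert (adjusted p = 0.000432) and by 0.81 against sgLkb1 (adjusted p = 0.000644).

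Of 44 other hypoxia genes 37 were tested, with 3 higher and 8 lower in sgCebpa/b/d, 5 higher and 2 lower in sgLkb1, and 4 lower in sgCebpa/b/d when set against sgLkb1. Stc1, a secreted hormone gene, was at 32.6 to 70.2 CPM in sgLkb1, 2.03 to 12.3 among sgCebpa/b/d libraries and 0 to 4.50 in sgInert, with log2 fold changes of 4.55 ± 0.49 (adjusted p = 5.0e-06) and 1.88 ± 0.46 (adjusted p = 0.0096) against sgInert. Igfbp3, a binding protein of insulin-like growth factors, was higher in both, by 2.503 ± 0.42 in sgCebpa/b/d and 2.11 ± 0.44 in sgLkb1. Angpt2, a vessel factor made mainly by endothelial cells, was 1.92 ± 0.60 higher in sgCebpa/b/d (adjusted p = 0.0458), beside the endothelial marker sums given above, and Lox, a collagen cross-linking enzyme, 1.86 ± 0.49 higher in sgLkb1 (adjusted p = 0.0261). Vldlr, a lipoprotein receptor, fell by 1.93 ± 0.23 in sgCebpa/b/d against sgInert (adjusted p = 7.29e-06) and by 1.57 against sgLkb1 (adjusted p = 0.000255). Rora, a nuclear receptor, and Ero1l, an oxidase of the endoplasmic reticulum, fell by 0.79 and 0.80 in sgCebpa/b/d. In sgLkb1, Ero1l and the CBP/p300-binding factor Cited2 fell by 0.64 each. Kdm3a, a histone demethylase, fell in sgCebpa/b/d relative to sgLkb1 (-0.82 ± 0.17, adjusted p = 0.0038).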

How the data were processed

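Neoplastic cells negative for CD45, CD31, F4/80 and Ter119 were sorted, and ribosome-depleted libraries were made from small amounts of total RNA. Per the labels and the study's methods, the authors aligned reads to mm10 with STAR (version 2.6.1d) and estimated abundance with RSEM (version 1.2.30), which divides reads between similar genes by likelihood. The deposited expected counts per gene were rounded to whole numbers and used for tests, and the deposited TPM (corrected for effective length) for levels between genes. The authors' DESeq2 (1.26.0) comparison tables, which hold fold changes and p-values, and their normalized count table were not used.

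The filter filterByExpr was set to a minimum count of 10 and a minimum total count of 15. All 19 libraries entered 1 model of the 3 virus groups, with TMM scaling and no covariate, in edgeR 4.0.16 (R 4.3.3, limma 3.58.1) with the quasi-likelihood test and Benjamini-Hochberg adjustment over all 13986 genes tested. A call is an adjusted p under 0.05. The script was tested on simulated counts. Depth limits low genes, and p-values measure only the spread between libraries, which may in part be technical. No 2 libraries of a group differed as little as sampling noise (chi-square per gene 6.67 to 73.7 over 52 pairs).

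The 38 genes and the other lists were chosen with earlier results of these data known. Of the 38, each called gene was to be given with its values, and of the other pathway genes the 3 with the smallest p per direction and comparison. Alternatives were RLE scaling, DESeq2 1.42.0 with and without RSEM's effective lengths, limma on log2(TPM + 1), no filter, a stricter fold, sex or kind of title as covariate, subsets of libraries, summing libraries of the same title number, a replicate block, and leaving out each library. Replicate numbers are those of the labels. Promoter windows are from RefSeq (GRCm38.p6), 250 bases before to 30 after a start. A further allele shared by all mice is not reported here.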

Additional observations from a re-analysis of the deposited data

Results flagged for a closer look

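Of 93 groups of libraries examined (31 genes in 3 groups), 4 held a library far from the rest by Dixon's ratio, the gap to the nearest library over the whole range of log2 CPM. Chance flags about 1 in 20 groups. Hk2, a hexokinase, was highest in sgInert replicate 3 at 145 CPM, with the next library at 93.6 CPM (ratio 0.621). Pfkfb3, the source of a phosphofructokinase activator, was highest in sgLkb1 replicate 5 at 23.3 CPM, with the next at 19.6 CPM (ratio 0.804). Aldoa, an aldolase, was lowest in sgLkb1 replicate 2 at 131 CPM, with the next at 163 CPM (ratio 0.728). Ddit4, an mTORC1 inhibitor, was lowest in sgInert replicate 6 at 12.1 CPM, with the next at 30.2 CPM (ratio 0.671).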

How the results depend on the processing

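Of the 17 fold changes called in the report, none changed direction under any alternative. Genes that were not called were not followed. Epas1 in both sgCebpa/b/d comparisons, Eno1 and Ldhb in sgLkb1 against sgInert, and Pfkfb3 in sgCebpa/b/d against sgInert kept an adjusted p under 0.05 under every alternative fit, the further condition on fold size aside. Counts are given below in the order sgCebpa/b/d against sgInert (9), sgLkb1 against sgInert (4), sgCebpa/b/d against sgLkb1 (4) and the F test (11), and where a setting moved a count by over 1.5 times the cause was not tested. A log2 fold change above 1 as a further condition left 1, 2 and 1. Leaving out the libraries with no title number left 5, 2, 2 and 6, the first 3 beside 881, 525 and 455 of 14080 genes. MT-numbered libraries summed by number, with 2 numbers per group, left 4 and 2 in the first and last comparisons of pairs. Of all 15073 genes, 419 and 237 were called there. The same setting left 7 in the F test. In sgLkb1 against sgInert, sex as covariate gave 8, MT-numbered libraries alone 9 and female libraries alone 7. Of all genes, these settings called 1258 of 13986, 953 of 13674 and 958 of 14128. In sgCebpa/b/d against sgLkb1, limma on log2(TPM + 1) gave 9, where the median of all genes lay at -0.15 (0.18 in sgLkb1 against sgInert), MT-numbered libraries alone gave 7 and female libraries alone 9. All-gene calls in these fits were 967 of 13986, 954 of 13674 and 1211 of 14128. Summing libraries of the same MT number among all libraries left 1 in sgCebpa/b/d against sgLkb1, beside 466 of 14204 genes, and 7 in the F test. Libraries of different groups with the same replicate number had deviations that correlated at -0.15 to 0.23 (median 0.02, 17 pairs), so replicate numbers were not taken as pairs. With the replicate number as a block, sgCebpa/b/d against sgLkb1 had 2 calls, beside 661 of 13986 genes. The other counts were 8, 3 and 9, the first 2 beside 1293 and 873 of 13986 genes. Leaving out 1 library at a time gave 8 to 12, 3 to 5, 1 to 5 and 9 to 13. Between the targeted groups it gave 2 and 1 without sgLkb1 replicate 3 and 5, beside 4.16% and 4.44% of all genes. Shares of all genes were not counted for the fold condition, the F test under alternatives and most fits without 1 library.

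Of single genes, Vegfa and Egln1 in sgCebpa/b/d against sgInert each lost the call in 5 of 15 alternatives, Slc16a1 in 4, Eno1 in 3, Ldhb in 2, and Hk2 and Ldha in 1. Against sgInert, sgLkb1 lost Pkm in 4 of 15 and Aldoa in 1. Between the targeted groups, Aldoa and Eno1 were lost in 5 of 16 and Ndrg1 in 3. Genes with few reads, such as Slc2a3, Car9 and Adm, could not be compared at this depth.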
